A study of Mus musculus with 83 samples.

Results

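The mitochondrial genome of the mouse is counted here as 37 genes, which were chosen as every row of the count table whose mouse symbol starts with mt-. They are 13 protein-coding genes, 2 ribosomal RNA (rRNA) genes and 22 transfer RNA (tRNA) genes, of 48795 genes in all. RNA was measured in 83 pools of 125 neurons, each cut by laser from 14 µm sections of fresh frozen frontal cortex of male C57BL/6 mice. The mice were old (22 months) or young (2 months), with 12 old and 9 young mice in the series. Excitatory pyramidal cells (PYC) were recognised by staining for Slc17a7. The interneurons were named by the marker they were stained for, which was Pvalb for PV cells (parvalbumin), Sst for SST cells (somatostatin) and Vip for VIP cells (a vasoactive peptide). There were 12 old pools and 9 young pools of PYC, of SST and of VIP neurons, and 12 old pools and 8 young pools of PV neurons. All mice carried the same background strain and no treatment is given in the labels. The labels tie no pool to a mouse, and pools of different types come in part from the same mice, so tests between types treat as independent some pools that may share a mouse. P-values therefore measure only the spread between these libraries.

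Mitochondrial DNA is a small circle that is transcribed from both strands into long precursors. These are cut at the tRNAs, which lie between most of the other genes, into the separate messenger, ribosomal and transfer RNAs. The 13 proteins are subunits of the respiratory chain and of ATP synthase, and all proteins that copy, transcribe and process this genome are encoded in the nucleus. PV interneurons are fast-spiking cells known for a high density of mitochondria.

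The results depend on which sequences a short read can tell apart, so some close nuclear relatives are shown first. The nucleus carries old copies of mitochondrial DNA, which appear in the count table as pseudogenes. On chromosome 1, 7 such pseudogenes were identical to mt-Co1, mt-Co2, mt-Atp6, mt-Co3, mt-Nd3, mt-Nd4l and mt-Nd4 over the whole aligned stretch, at 100% identity. Ends of the copies without a match were left out of that stretch. It covered 479 of 1545 bases of mt-Co1, 876 of 1378 bases of mt-Nd4 and nearly the whole of the others. The mt-Co1 copy on chromosome 2, Gm13340, differed at 37 of 1545 aligned bases, an identity of 97.6%. A stretch of 60 bases from each kind of copy is given from GRCm38 with the GENCODE M21 annotation, 5′ to 3′ along the gene, with bases that differ within a pair in capitals. The mt-Co1 stretch lies at chrM:5993-6052 on the plus strand, the Gm13340 stretch at chr2:22588923-22588982 on the minus strand, the mt-Atp6 stretch at chrM:7927-7986 on the plus strand and the Gm10925 stretch at chr1:24614592-24614651 on the minus strand.
mt-Co1: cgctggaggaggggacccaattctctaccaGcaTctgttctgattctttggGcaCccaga
Gm13340: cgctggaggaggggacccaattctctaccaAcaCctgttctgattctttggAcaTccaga
mt-Atp6: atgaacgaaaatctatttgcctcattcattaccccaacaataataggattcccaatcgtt
Gm10925: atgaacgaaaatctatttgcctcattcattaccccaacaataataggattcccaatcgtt
The first pair holds 4 differing bases, and the second pair holds none, so a read inside it fits both places equally well. The genes mt-Nd1, mt-Nd2, mt-Nd5, mt-Nd6 and mt-Cytb have no copy among the 7 on chromosome 1, and copies elsewhere were not aligned to them. No copy of mt-Atp8 is listed there either, but its last 43 bases are also the start of mt-Atp6, which Gm10925 matches.

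Genes that overlap are a second limit, because the sources used here do not state whether the counting used strand. The genes mt-Atp8 and mt-Atp6 share 43 bases. The gene mt-Nd6, the single coding gene on the light strand, ends inside mt-Nd5. The last 60 bases of mt-Nd5 (chrM:13506-13565, plus strand, GRCm38) are shown with the 14 shared bases in capitals.
mt-Nd5: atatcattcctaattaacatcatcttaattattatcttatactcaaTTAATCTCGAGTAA
The members on the light strand number 9, namely mt-Nd6 and 8 tRNAs, and levels of all of them are uncertain where reads of the opposite strand were counted too.

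Library totals ran from 1456843 to 27166041 counts with a median of 6988510. Each type's own marker list was highest in its own pools (the sum over 6 PV genes averaged 1222 ± 238 counts-per-million, CPM, in PV pools and 35.9 to 55.7 CPM in the other types). Astrocyte markers were present throughout, with a sum over 14 genes of 1223 to 4338 CPM. In 6 libraries the mt- genes took under 3% of counts, and the main results are given with and without them. They were young PYC replicate 2 (0.215%), young VIP replicates 3 (0.873%) and 1 (0.890%), old PYC replicate 10 (1.26%), young SST replicate 6 (2.14%) and old VIP replicate 11 (2.51%). The library titles hold an F number that the labels do not explain. It was 2 for the first 3 of these libraries, 8 for old PYC replicate 10 and old VIP replicate 11, and 7 for young SST replicate 6. Libraries over 3% carry the same numbers, and the part of the F number in the low share was not tested. In the other 77 libraries the share ran from 8.31% to 17.0%, so no library lay between. None of the 6 was a PV library. Their totals ran from 3301595 to 27166041 counts, and those of the other 77 from 1456843 to 15460828.

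In GRCm38 the genes follow each other along chrM, each without introns. The rRNA gene mt-Rnr1 lies at chrM:70-1024 and mt-Rnr2 at chrM:1094-2675, followed by the complex I genes mt-Nd1 at chrM:2751-3707 and mt-Nd2 at chrM:3914-4951. The cytochrome c oxidase genes mt-Co1 (chrM:5328-6872), mt-Co2 (chrM:7013-7696) and mt-Co3 (chrM:8607-9390) lie around the ATP synthase genes mt-Atp8 (chrM:7766-7969) and mt-Atp6 (chrM:7927-8607). The complex I genes mt-Nd3 (chrM:9459-9806), mt-Nd4l (chrM:9877-10173), mt-Nd4 (chrM:10167-11544) and mt-Nd5 (chrM:11742-13565) come next, then mt-Nd6 (chrM:13552-14070, minus strand) and mt-Cytb (chrM:14145-15288). All but mt-Nd6 are on the plus strand.

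Most mitochondrial counts were ribosomal. The 2 rRNA genes are mt-Rnr1, the 12S rRNA of the small subunit of the mitochondrial ribosome, and mt-Rnr2, the 16S rRNA of the large subunit. They took 11.3% ± 1.69 of counts in PV libraries (SD, n = 20), 9.26% ± 3.20 in PYC, 9.62% ± 2.22 in SST and 8.95% ± 3.75 in VIP libraries (SD, n = 21 each). With the 6 libraries left out the rRNA share was 10.2% ± 1.42 in PYC, 10.01% ± 1.34 in SST and 10.3% ± 2.00 in VIP libraries, so the gap to PV was smaller. The 13 coding genes took 1.52% ± 0.251 in PV libraries, 1.04% ± 0.349 in PYC, 1.15% ± 0.246 in SST and 1.09% ± 0.424 in VIP libraries. Without the 6 libraries, the coding share was still highest in PV at 1.52% ± 0.251 (n = 20), against 1.13% ± 0.216 in PYC (n = 19), 1.19% ± 0.166 in SST (n = 20) and 1.23% ± 0.266 in VIP libraries (n = 18). The ranges of the 4 types overlapped for both classes. In pools of cells, more mitochondrial RNA per neuron and a different mix of cells in the cut cannot be told apart.

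By age, the coding share averaged 1.54% ± 0.235 in old PV libraries (n = 12) and 1.495% ± 0.288 in young PV libraries (n = 8), and 1.05% ± 0.325 in old PYC libraries (n = 12) and 1.02% ± 0.398 in young PYC libraries (n = 9). It averaged 1.27% ± 0.122 in old SST libraries and 1.003% ± 0.295 in young SST libraries, and 1.17% ± 0.357 in old VIP libraries and 0.981% ± 0.501 in young VIP libraries (n = 12 and 9). In SST, where the means were furthest apart relative to their spread, the old libraries ran from 1.10% to 1.44% and the young from 0.341% to 1.36%, so they overlapped. Without young SST replicate 6 the young mean was 1.09% ± 0.169 (n = 8). Without the libraries under 3%, the coding share was 1.24% ± 0.283 in old (n = 11) and 1.21% ± 0.259 in young VIP libraries (n = 7), so most of the VIP difference rested on them, and 1.12% ± 0.230 in old (n = 11) and 1.14% ± 0.210 in young PYC libraries (n = 8). With young VIP replicate 1 or replicate 3 alone left out, the VIP difference was 0.0897 or 0.0877 percentage points, against 0.187 with all libraries. The rRNA share averaged 10.6% ± 1.34 in old SST libraries and 8.29% ± 2.52 in young ones, or 9.10% ± 0.677 in the 8 young libraries left without replicate 6. In PYC it averaged 9.87% ± 3.002 in old and 8.44% ± 3.44 in young libraries, or 10.7% ± 1.13 and 9.48% ± 1.56 in old and young libraries without those under 3%. In VIP it averaged 9.99% ± 3.37 in old and 7.56% ± 3.98 in young libraries, or 10.7% ± 2.37 and 9.52% ± 0.979 in old and young libraries without those under 3%. In PV it averaged 11.2% ± 1.86 in old and 11.4% ± 1.52 in young libraries. No test was run on these shares, since they sum over the chosen genes.

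**Figure D1:**
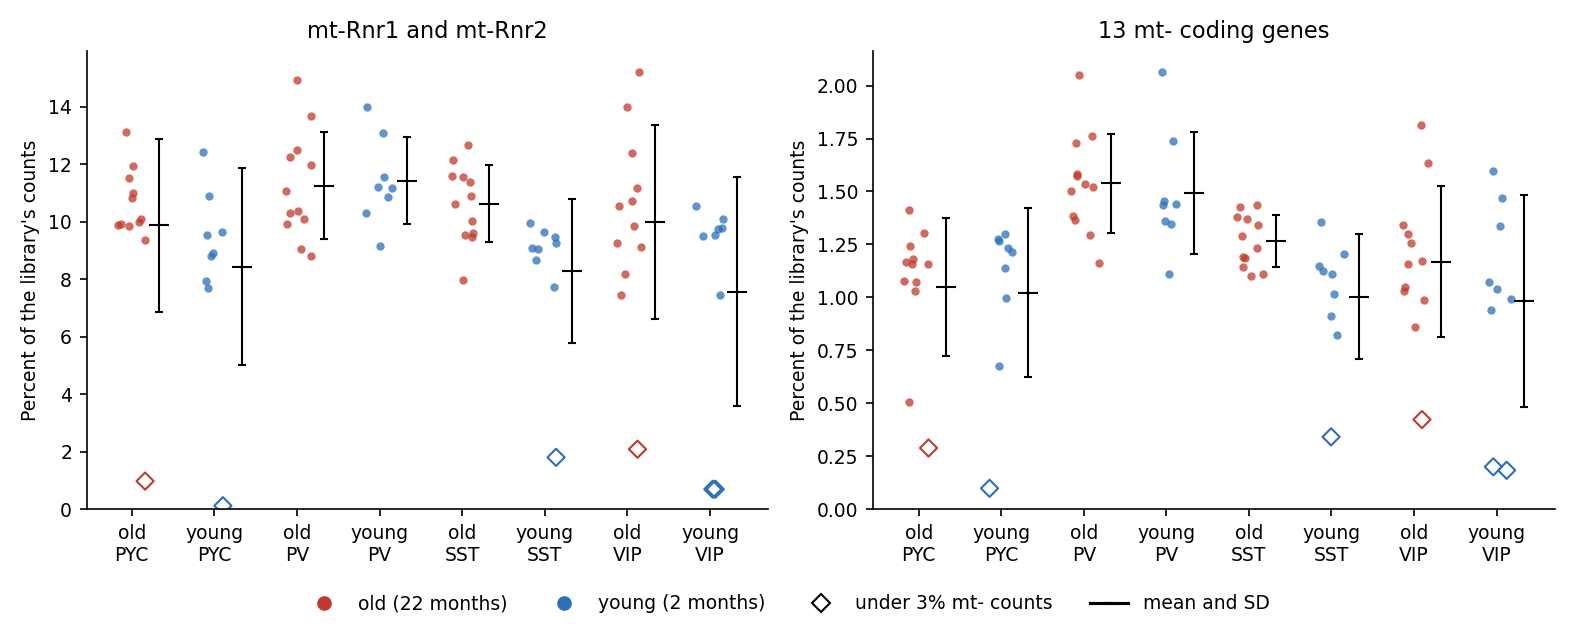
Share of each library's counts (percent, vertical axes) in mt-Rnr1 and mt-Rnr2 (left) and in the 13 mt- coding genes (right), for the 8 groups of age and neuron type; points are libraries, open diamonds the 6 libraries under 3% mt- counts, and bars the mean with its SD over all libraries of a group. The open diamonds lie far under the rest in every group that has one, and PV, which has none, has the highest coding shares.

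Per kilobase, the rRNAs stood far above the coding genes, and the coding genes spread widely although they share their precursors. The median over the 83 libraries was 53063 CPM per kilobase for mt-Rnr1 and 31582 CPM per kilobase for mt-Rnr2. Among coding genes, mt-Co1, the catalytic subunit of cytochrome c oxidase, had the highest median at 2762 CPM per kilobase. It was followed by mt-Atp6, a subunit of the proton channel of ATP synthase, at 2149, and mt-Cytb, the cytochrome b of complex III, at 1315 CPM per kilobase. These 3 were well separated: mt-Co1 was above mt-Atp6 in 75 of 83 libraries, mt-Atp6 above mt-Cytb in 78, and mt-Cytb above the next gene in 82. The next 3 were close together, at 827 for mt-Nd5, 811 for mt-Nd1 (both subunits of complex I) and 807 CPM per kilobase for mt-Co2 (a subunit of cytochrome c oxidase). Neither step between them was seen in more than 44 of 83 libraries, so their order is not resolved. Then came mt-Co3 at 597, mt-Nd4 at 562, mt-Nd6 at 462, mt-Nd4l at 399, mt-Nd2 at 374, mt-Atp8 at 258 and mt-Nd3 at 126 CPM per kilobase. From mt-Co3 to mt-Nd2 the steps between neighbours are not resolved either, since each gene was above the next in only 44 to 54 of 83 libraries. Genes further apart in this run were not compared library by library. The lowest, mt-Nd3, was under mt-Atp8 in 73 of 83 libraries. Ranked over all libraries, the 13 coding genes kept their places when the 6 libraries were left out, and within the 8 groups the exception was young VIP, where mt-Nd6 and mt-Nd4l changed places. Of the coding counts as such, without regard to length, mt-Co1 alone made up 33.8% ± 2.46 in PV libraries, against 35.3% ± 3.40 in PYC, 34.7% ± 2.85 in SST and 34.7% ± 2.83 in VIP libraries.

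**Figure D2:**
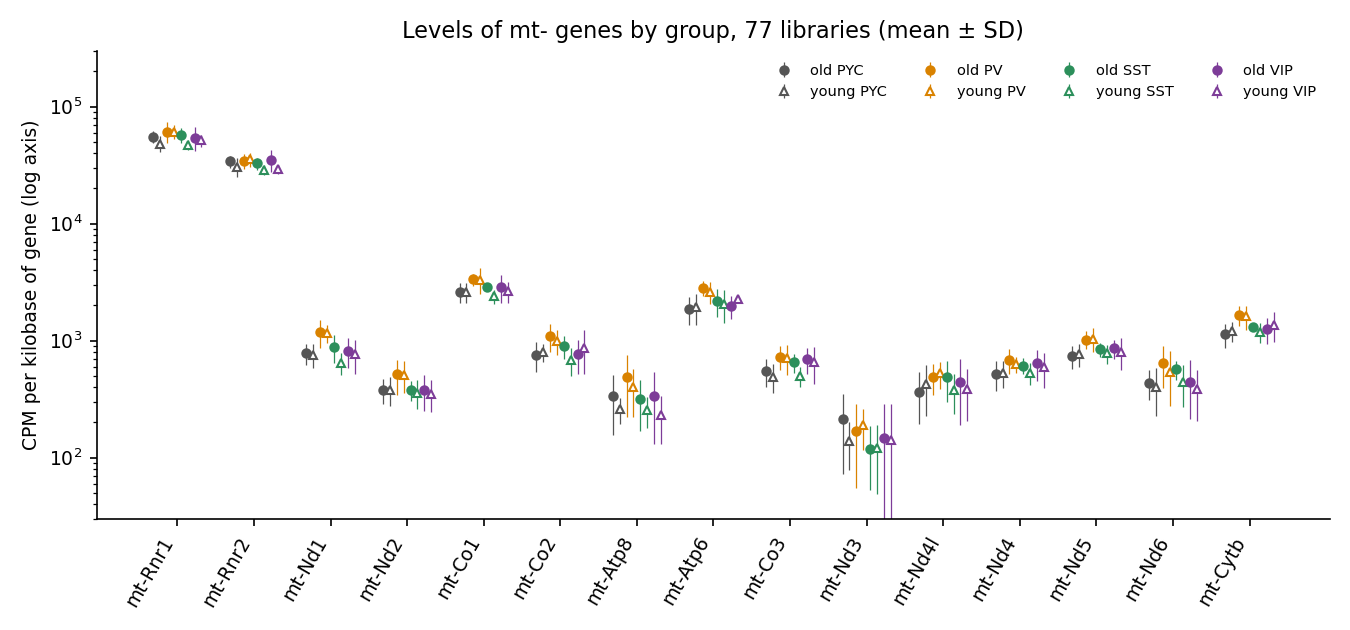
Level of the 2 rRNA and 13 coding genes (CPM per kilobase of gene, log axis) in the order of the mitochondrial genome, as mean ± SD for old (filled circles) and young (open triangles) libraries of each type, without the 6 libraries under 3% mt- counts; bars that would pass the lower edge are cut off there. The rRNAs lie far above mt-Co1, and the orange PV symbols are among the highest for most coding genes.

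The tRNAs were hardly counted. All 22 together took 8214 counts of 607766984 in the 83 libraries, and the genes mt-Tp (proline), mt-Tg (glycine) and mt-Tv (valine), singled out after their values were seen, held 4668, 1956 and 941 of them. The other 19 tRNA genes held 649 counts in all. The sequences of these 3 and of mt-Ts2 (serine), which had no count in any library, are given to show how short the targets are, 5′ to 3′ along each gene (GRCm38), with the anticodon in capitals.
mt-Tp: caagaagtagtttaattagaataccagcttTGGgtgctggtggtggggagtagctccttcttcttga
mt-Tg: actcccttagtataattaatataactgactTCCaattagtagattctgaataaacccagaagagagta
mt-Tv: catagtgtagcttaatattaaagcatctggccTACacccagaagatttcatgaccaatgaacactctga
mt-Ts2: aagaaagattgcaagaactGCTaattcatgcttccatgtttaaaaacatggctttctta
They lie at chrM:15356-15422 (minus strand), chrM:9391-9458, chrM:1025-1093 and chrM:11613-11671 (plus strand). A count of 0 for mt-Ts2 over all libraries allows up to 0.00494 CPM, by counting error alone. The counts of mt-Tp were uneven, with 0 counts in 17 libraries and up to 71.7 CPM in 1 old VIP library. The tRNA share was widest within old VIP libraries, where it ran from 0.000186% to 0.00918%, against 8.98e-05% to 0.00319% in young VIP libraries. It ran from 0.000208% to 0.00370% in old and 0.000133% to 0.00133% in young SST libraries. In both types the old and young ranges overlapped, and 1 library set the top of the old VIP range. In the tests of age, 3 tRNAs passed the filter on low counts in PYC and in PV, and 1 in SST and in VIP.

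The first comparison asked whether the mt- genes differ between old and young neurons of 1 type. In edgeR's quasi-likelihood test with Benjamini-Hochberg adjustment over all genes, no gene of any kind passed an adjusted p of 0.05 in any type (0% of the genes tested), so no mt- gene did. At an unadjusted p under 0.05 there were 0 of 18 tested mt- genes in PYC (2.91% of all 12508 genes), 0 of 18 in PV (2.32% of 12564), 6 of 16 in SST (2.87% of 12805) and 0 of 16 in VIP (2.98% of 12337). DESeq2 called no mt- gene in any type, and limma-voom called 1, mt-Rnr1 in PYC (0.0160% of all genes). The median log2 fold change of the 13 coding genes, old over young, was 0.028 in PYC, 0.0014 in PV, 0.36 in SST and 0.36 in VIP, beside 0.0031, 0.0046, -0.0079 and 0.019 for all genes tested. The single values ran from -0.22 to 0.65 in PYC (10 of 13 positive), from -0.21 to 0.25 in PV (7 of 13), from 0.15 to 0.60 in SST (13 of 13) and from 0.084 to 0.81 in VIP (13 of 13). Genes on 1 precursor are not independent of each other, so the shared sign is a description. Without the 6 libraries these medians were -0.01 in PYC, 0.25 in SST and 0.15 in VIP.

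The SST pools held the 6 genes. For mt-Co3, a subunit of cytochrome c oxidase, old libraries had 375, 501 and 679 CPM (lowest, median and highest) and young libraries 174, 356 and 503 CPM. The log2 fold change was 0.49 ± 0.15 (SE) beside an unadjusted p of 0.00197 (edgeR adjusted p = 0.9999). The old median lay near the highest young library, but the groups overlapped. For mt-Co2, old libraries had 424, 571 and 838 CPM and young libraries 156, 450 and 658 CPM, a log2 fold change of 0.51 ± 0.17. For mt-Co1, old libraries had 3770, 4394 and 4978 CPM and young libraries 1285, 3785 and 4251 CPM, a log2 fold change of 0.36 ± 0.13. In mt-Co1 the lowest value was young SST replicate 6, and without it the log2 fold change was 0.25 ± 0.07. The other 3 were mt-Nd1 at 0.60 ± 0.26, mt-Nd6 at 0.47 ± 0.20 and mt-Cytb at 0.25 ± 0.12. The rRNAs gave 0.40 ± 0.22 for mt-Rnr1, with 39917, 54105 and 66004 CPM in old and 8010, 42102 and 50842 CPM in young libraries. For mt-Rnr2, the log2 fold change was 0.30 ± 0.20, with 39891, 51496 and 60808 CPM in old and 9980, 44859 and 50841 CPM in young libraries. All these ranges overlapped. Without young SST replicate 6 the log2 fold change was 0.26 ± 0.09 for mt-Rnr1, 0.16 ± 0.09 for mt-Rnr2, 0.39 ± 0.13 for mt-Co3, 0.39 ± 0.15 for mt-Co2, 0.46 ± 0.14 for mt-Nd1, 0.36 ± 0.18 for mt-Nd6 and 0.15 ± 0.09 for mt-Cytb. Of all mt- genes tested then, 5 of 17 were under an unadjusted p of 0.05 (2.81% of 13010 genes), with mt-Co1 at the smallest, 0.00133, and 12 of the 13 coding genes were positive.

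In VIP pools the same direction was seen with a wider spread. For mt-Atp8, a small subunit of ATP synthase, old libraries had 9.40, 47.0 and 163 CPM and young libraries 0, 37.2 and 78.8 CPM, with a log2 fold change of 0.81 ± 0.52. For mt-Nd6, old libraries had 92.7, 188 and 514 CPM and young libraries 29.4, 168 and 382 CPM (0.50 ± 0.38), and for mt-Nd5 old libraries had 664, 1639 and 1965 CPM and young libraries 378, 1143 and 1984 CPM (0.33 ± 0.26). The groups overlapped almost wholly. For mt-Rnr1, old VIP libraries had 9539, 49279 and 75535 CPM and young libraries 2506, 48964 and 54526 CPM (0.36 ± 0.47). For mt-Rnr2, old VIP libraries had 11277, 52664 and 76343 CPM and young libraries 4026, 46124 and 50729 CPM (0.53 ± 0.42). The medians of mt-Rnr1 were close, and the low ends were the libraries under 3%. Without those 3 libraries the log2 fold change was 0.12 ± 0.16 for mt-Rnr1, 0.29 ± 0.15 for mt-Rnr2, 0.59 ± 0.40 for mt-Atp8, 0.27 ± 0.26 for mt-Nd6 and 0.14 ± 0.13 for mt-Nd5. Then 10 of 13 coding genes were positive, from -0.16 to 0.59, and none of the 17 tested mt- genes was under an unadjusted p of 0.05 (2.11% of genes).

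In PYC and PV pools the median log2 fold change of the coding genes was smaller than in SST and VIP. This did not hold for every single gene. In PYC, mt-Nd3, a complex I subunit, had 9.91, 59.5 and 162 CPM in old libraries and 0, 41.1 and 87.2 CPM in young libraries (log2 fold change 0.65 ± 0.51). For mt-Atp8, old PYC libraries had 1.18, 50.9 and 141 CPM and young libraries 3.003, 55.3 and 69.3 CPM (0.38 ± 0.44). For mt-Co3 they had 185, 425 and 609 CPM in old and 19.8, 396 and 544 CPM in young libraries (0.24 ± 0.32). The PYC groups overlapped in each. For mt-Rnr1, old PYC libraries had 4317, 51515 and 65401 CPM and young libraries 429, 44993 and 57596 CPM (0.26 ± 0.49), and for mt-Rnr2 5415, 52189 and 65692 CPM in old and 730, 46638 and 66461 CPM in young libraries (0.21 ± 0.46). Without the 2 PYC libraries under 3% the log2 fold change was 0.21 ± 0.13 for mt-Rnr1, 0.16 ± 0.14 for mt-Rnr2, 0.59 ± 0.37 for mt-Nd3, 0.35 ± 0.31 for mt-Atp8 and 0.15 ± 0.15 for mt-Co3, and no mt- gene was under an unadjusted p of 0.05 (2.79% of genes). With young PYC replicate 2 alone left out the log2 fold change was 0.091 for mt-Rnr1, 0.042 for mt-Rnr2 and 0.073 for mt-Co3. In PV, which has no library under 3%, the standard errors were the smallest of the 4 types for 14 of 15 rRNA and coding genes. For mt-Nd6, old PV libraries had 167, 298 and 688 CPM and young libraries 103, 276 and 492 CPM (0.21 ± 0.24). For mt-Atp8 they had 35.0, 95.2 and 178 CPM in old and 44.7, 69.5 and 139 CPM in young libraries (0.25 ± 0.30), and for mt-Atp6 1437, 1854 and 2314 CPM in old and 1138, 1747 and 2403 CPM in young libraries (0.08 ± 0.10). Old and young PV values covered nearly the same ranges. For mt-Rnr1, old PV libraries had 44819, 55931 and 83741 CPM and young libraries 44835, 57962 and 71170 CPM (-0.03 ± 0.13), and for mt-Rnr2 43097, 53454 and 65527 CPM in old and 46725, 54711 and 68612 CPM in young libraries (-0.09 ± 0.11).

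Whether the difference between ages itself differed between types was tested directly with the interaction of age and type in edgeR. No mt- gene passed (smallest unadjusted p 0.259, for mt-Tg, adjusted p 0.887), beside 3.13% of all 19208 genes called. Among the 9604 genes at or above the median abundance, which include the rRNA and coding genes, 0.0104% were called, so 3.13% is not the share at the abundance of those mt- genes. Without the 6 libraries the smallest unadjusted p was 0.148, for mt-Rnr2, beside 3.92% of genes called. The positive values in SST and VIP are thus not shown to differ from those in PYC and PV.

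Ratios between mt- genes within a library need no library size and were compared between ages by exact 2-sided permutation tests, with adjustment over 16 tests (4 ratios in 4 types). None passed. In SST the log2 ratio of mt-Nd5 to mt-Nd1, genes at the far and near end of the heavy strand unit, was 0.897 ± 0.369 in old and 1.36 ± 0.531 in young libraries (SD, n = 12 and 9), a difference of -0.47 (exact permutation p = 0.0223, adjusted p = 0.267). The log2 ratio of mt-Nd1 to mt-Rnr2 in SST was -5.98 ± 0.257 in old and -6.30 ± 0.399 in young libraries, a difference of 0.32 (exact permutation p = 0.0334, adjusted p = 0.267). Without young SST replicate 6 these differences were -0.32 (exact permutation p = 0.0613) and 0.27 (exact permutation p = 0.0749), each with an adjusted p of 0.399. The 12S to 16S ratio (mt-Rnr1 over mt-Rnr2) in VIP was -0.109 ± 0.101 in old and -0.0776 ± 0.341 in young libraries on the log2 scale (adjusted exact permutation p = 0.835). Without the VIP libraries under 3% it was -0.0967 ± 0.0960 in old (n = 11) and 0.0857 ± 0.0812 in young libraries (n = 7), a difference of -0.18 (exact permutation p = 0.000691, adjusted p = 0.0111), so this ratio passed only with those libraries left out. The cause of that dependence was not tested. The matching differences in PYC, PV and SST without the libraries were 0.04, 0.05 and 0.09.

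The second comparison asked whether the types differ, and here the mt- genes did. In PV pools 10 of the 13 coding genes were higher than in the mean of PYC, SST and VIP, with each age given equal weight (edgeR, adjusted p under 0.05), beside 8.29% of 19208 genes called higher and 8.75% called lower. They were mt-Nd1, mt-Nd2, mt-Nd5 and mt-Nd6 of complex I, mt-Cytb of complex III, mt-Co1, mt-Co2 and mt-Co3 of complex IV, and mt-Atp6 and mt-Atp8 of ATP synthase, so each complex that holds mitochondrially encoded subunits was represented. All 13 coding genes had a positive log2 fold change, from 0.42 to 0.85 with a median of 0.59, against -0.05 for all genes tested. Neither rRNA and none of the 3 tested tRNAs passed.

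For mt-Nd1 the PV libraries had 764, 1152 and 1784 CPM (lowest, median and highest, n = 20), against 11.7, 714 and 1395 CPM in the 63 libraries of the other types. All 20 PV libraries lay above the median of the others, and 33 of the 57 other libraries with over 3% mt- counts lay under the lowest PV library. The log2 fold change of mt-Nd1 was 0.82 ± 0.21 (SE, edgeR adjusted p = 0.00323), or 0.65 ± 0.09 without the 6 libraries (adjusted p = 5.70e-09). By type, mt-Nd1 averaged 1116 ± 257 CPM in PV, 671 ± 255 in PYC, 720 ± 260 in SST and 665 ± 327 CPM in VIP libraries. For mt-Nd5, PV libraries had 1313, 1853 and 2558 CPM, against 194, 1453 and 1984 CPM in the others. Here 7 PV libraries exceeded every library of the other types. The log2 fold change of mt-Nd5 was 0.56 ± 0.13 (edgeR adjusted p = 0.000648), or 0.43 ± 0.07 without the 6 libraries. For mt-Cytb, PV libraries had 1282, 1800 and 2811 CPM, against 126, 1387 and 2342 CPM, and 18 of 20 lay above the median of the others. The log2 fold change of mt-Cytb was 0.59 ± 0.14 (adjusted p = 0.000792), or 0.45 ± 0.07 without the 6 libraries. Neither mt-Nd1, mt-Nd5 nor mt-Cytb has a copy among the 7 on chromosome 1, but whether they have copies elsewhere was not tested.

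These genes did not separate the ages within PV. For mt-Nd1, old PV libraries had 764, 1122 and 1784 CPM and young PV libraries 778, 1157 and 1323 CPM. For mt-Nd5 they had 1313, 1853 and 2435 CPM in old and 1413, 1777 and 2558 CPM in young libraries, and for mt-Cytb 1354, 1846 and 2811 CPM in old and 1282, 1769 and 2774 CPM in young libraries. The old and young ranges overlapped in each.

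Subunits of cytochrome c oxidase and ATP synthase were also higher in PV. For mt-Co1, PV libraries had 3828, 4964 and 7406 CPM, against 228, 4132 and 7109 CPM in the others (log2 fold change 0.53 ± 0.15). For mt-Atp6, PV libraries had 1138, 1833 and 2403 CPM, against 66.5, 1389 and 2234 CPM (0.63 ± 0.18), and 19 of 20 lay above the median of the others. The ranges overlapped at the top, with 1 PV library above all others for mt-Co1 and 3 for mt-Atp6. For mt-Co2, PV libraries had 487, 719.9 and 1279 CPM, against 34.2, 517 and 907 CPM (0.61 ± 0.18), and for mt-Co3 360.4, 569 and 898 CPM, against 19.8, 438 and 754 CPM (0.49 ± 0.16). For mt-Atp8, PV libraries had 35.0, 81.8 and 178 CPM, against 0, 49.1 and 163 CPM (0.85 ± 0.25). The PV medians lay above those of the other types in each, and 19 of 20 PV libraries lay above the median of the others for mt-Co2, 16 for mt-Co3 and 14 for mt-Atp8.

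In complex I, mt-Nd2 had 288, 548 and 869 CPM in PV libraries, against 19.5, 373 and 618 CPM in the others (log2 fold change 0.66 ± 0.16, edgeR adjusted p = 0.00181), and 7 PV libraries exceeded all others. The light strand gene mt-Nd6 had 103, 298 and 688 CPM in PV libraries, against 29.4, 219 and 514 CPM (0.61 ± 0.18, adjusted p = 0.0110). Genes annotated on both strands were thus among those called, but whether the mt-Nd6 counts hold only light strand reads is not known. The 3 coding genes that did not pass follow each other in the order of coding genes. For mt-Nd3, PV libraries had 6.84, 60.6 and 144 CPM, against 0, 38.4 and 162 CPM, for mt-Nd4l 90.3, 159 and 209.7 CPM, against 0.898, 103 and 257 CPM, and for mt-Nd4 651, 930.4 and 1447 CPM, against 64.8, 751 and 1359 CPM. The PV medians were above those of the others in all 3. The log2 fold changes of these genes were 0.52 ± 0.34 for mt-Nd3 (edgeR adjusted p = 0.359), 0.50 ± 0.24 for mt-Nd4l (adjusted p = 0.1495) and 0.42 ± 0.18 for mt-Nd4 (adjusted p = 0.106). For mt-Rnr1, PV libraries had 44819, 56701 and 83741 CPM, against 429, 49097 and 75535 CPM (log2 fold change 0.44 ± 0.21, adjusted p = 0.157), and for mt-Rnr2 43097, 53591 and 68612 CPM, against 730, 48778 and 76343 CPM (0.35 ± 0.19, adjusted p = 0.241).

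**Figure D3:**
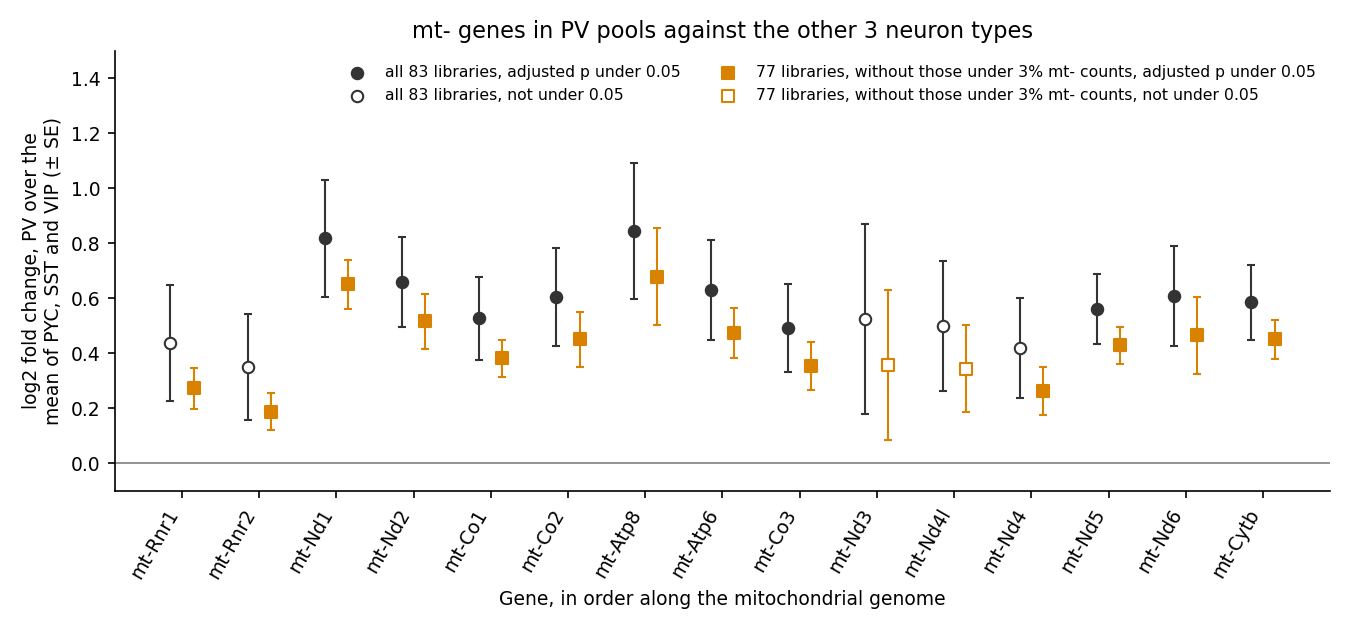
Log2 fold change of the 2 rRNA and 13 coding genes in PV libraries over the mean of PYC, SST and VIP (points, with SE bars), from edgeR on all 83 libraries (circles) and on the 77 libraries with over 3% mt- counts (squares); filled symbols have an adjusted p under 0.05. All points are positive, and leaving out the 6 libraries lowers every fold change and shortens every bar, with mt-Nd4, mt-Rnr1 and mt-Rnr2 then passing as well.

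Leaving out the 6 libraries, all of which belong to the other types, gave 13 called genes (8.66% of 19556 genes called higher). They were the same 10 with mt-Nd4 (0.26 ± 0.09, edgeR adjusted p = 0.0260), mt-Rnr1 (0.27 ± 0.07, adjusted p = 0.00449) and mt-Rnr2 (0.19 ± 0.07, adjusted p = 0.0416). The rRNA fold changes stayed under those of all called coding genes except mt-Nd4. Coding counts per 100 rRNA counts averaged 13.5 ± 1.87 in PV libraries, against 11.4 ± 2.79 in PYC, 12.0 ± 1.76 in SST and 12.0 ± 1.86 in VIP libraries without the 6. The log2 ratio of mt-Nd1 to mt-Rnr2, neighbours on the precursor, averaged -5.65 ± 0.264 in PV libraries, against -6.15 ± 0.396 in PYC, -6.08 ± 0.334 in SST and -6.11 ± 0.349 in VIP libraries without the 6, with ranges that overlapped.

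The difference was also looked for within each age and against each type. Among old libraries 7 mt- genes were higher in PV (4.84% of genes called higher), and among young libraries none, although all 13 coding genes were positive, from 0.48 to 0.99, with 3.54% of genes called higher. At an unadjusted p under 0.05 there were 7 mt- genes, beside 16.6% of all genes in either direction. The young libraries hold 4 of the 6 libraries under 3%. Without these libraries 8 mt- genes were called among old libraries (4.97%) and 9 among young libraries (4.02%). In both ages mt-Nd1, mt-Nd2, mt-Nd5, mt-Cytb, mt-Co1 and mt-Atp6 were among them, and mt-Nd1 had a log2 fold change of 0.53 ± 0.12 in old and 0.76 ± 0.12 in young libraries. Against each type alone, 8 mt- genes were higher in PV than in PYC (7.39% of genes called higher), 4 than in SST (4.19%) and 9 than in VIP (7.01%). Without the 6 libraries there were 10 against PYC (7.34%), 11 against SST (4.63%) and 10 against VIP (6.50%). The 4 genes called against SST in all libraries were mt-Cytb, mt-Nd1, mt-Nd2 and mt-Nd5. These within-age fits without the 6 libraries and the pairwise fits were chosen after seeing the data.

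No other type had a called mt- gene over all 83 libraries, beside 13.3% of genes called in either direction in PYC, 8.01% in SST and 12.0% in VIP (edgeR). At an unadjusted p under 0.05 there were 1 mt- gene in PYC, none in SST and 2 in VIP, beside 23.4%, 17.2% and 22.9% of all genes in PYC, SST and VIP, and limma-voom called mt-Nd1, mt-Nd2 and mt-Nd4 lower in SST (2.08% of genes called lower). Without the 6 libraries mt-Co3 (-0.30 ± 0.09, edgeR adjusted p = 0.0164), mt-Cytb (-0.21 ± 0.07, adjusted p = 0.0387) and mt-Nd5 (-0.21 ± 0.07, adjusted p = 0.0409) were lower in PYC (5.08% of genes called lower), and mt-Nd1 (-0.29 ± 0.09, adjusted p = 0.0325) was lower in SST (2.62% called lower). Since each type is set against a mean that includes PV, these values are not independent of the PV result.

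Other measures were also read by type, and not all of them set PV apart. The astrocyte marker sum was lower, at 2285 ± 576 CPM in PV libraries, ranging from 1223 to 3413, against 3132 ± 489 in PYC, 2944 ± 461 in SST and 3553 ± 480 CPM in VIP libraries, and none of the 14 markers was at 0 throughout. The oligodendrocyte sum over 12 genes was 599.8 ± 160 CPM in PV libraries, against 757 ± 331 in PYC, 999 ± 339 in SST and 740.5 ± 446 CPM in VIP libraries. Nuclear long noncoding RNAs (8 genes) took 1.69% ± 0.307 of counts in PV libraries, against 1.76% ± 0.533 in PYC, 2.07% ± 0.394 in SST and 2.14% ± 0.431 in VIP libraries. Of 18 listed nuclear rRNA-like genes 15 were in the count table, and 5 of those had no count. Together they took 9.73% ± 1.78 in PV libraries, against 10.49% ± 4.26 in PYC, 7.59% ± 1.63 in SST and 8.09% ± 2.37 in VIP libraries. The part of these in the result was not tested.

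Nuclear genes that serve the mitochondrial genome were read in the same fits. Of 8 regulators of mitochondrial biogenesis, 2 were higher in PV, beside 8.29% of all genes. The first, Ppargc1a, encodes a transcriptional coactivator that drives mitochondrial gene programmes. It had 89.1, 261 and 401 CPM (lowest, median and highest) in PV libraries, against 12.6, 71.9 and 214 CPM in the others, with a log2 fold change of 1.78 ± 0.15 (edgeR adjusted p = 3.65e-20). By type, Ppargc1a averaged 244 ± 75.7 CPM in PV, 56.0 ± 32.7 in PYC, 110 ± 38.8 in SST and 76.8 ± 43.0 CPM in VIP libraries. It was higher in PV among old libraries alone (1.56 ± 0.19) and among young libraries alone (1.96 ± 0.21), and lower in PYC (-1.23 ± 0.17, adjusted p = 3.66e-09, 5.31% of genes called lower) and VIP (-0.60 ± 0.16, adjusted p = 0.00572, 4.18% called lower). The PYC and VIP values are set against a mean that includes PV, so they are not independent of the PV result. The second, Esrra, encodes a nuclear receptor that this coactivator binds. It had 1.63, 25.9 and 88.3 CPM in PV libraries, against 0, 8.63 and 66.4 CPM in the others, 8 of which had no count (1.30 ± 0.45, adjusted p = 0.0337). Esrra was not called within either age alone (edgeR adjusted p = 0.105 among old and 0.523 among young libraries).

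Of the list of 49 genes for replication, transcription and processing of mitochondrial nucleic acids, 48 were in the table and tested, and 1 was higher in PV, beside 8.29% of all genes called higher, so nothing is read about the list from it. It was Lrpprc, whose protein stabilises mitochondrial messenger RNAs, with 40.5, 115 and 199 CPM in PV libraries, against 1.20, 79.2 and 153 CPM in the others (log2 fold change 0.74 ± 0.17, edgeR adjusted p = 0.000667). Lrpprc was also the 1 gene of the list called in VIP, where it was lower (-0.68 ± 0.19, adjusted p = 0.00624) against a mean that includes PV. Among old libraries alone its PV value was 0.53 ± 0.20 (adjusted p = 0.0833) and among young libraries alone 0.91 ± 0.30 (adjusted p = 0.0465). The methyltransferase gene Mrm1 did not pass (1.77 ± 0.74, adjusted p = 0.0912). Without the 6 libraries the PV values were 1.74 ± 0.15 for Ppargc1a, 1.40 ± 0.47 for Esrra and 0.66 ± 0.15 for Lrpprc, and all 3 passed. The median log2 fold change of the list in PV was 0.21, against -0.05 for all genes. For age, edgeR called no gene of either list in any type, with 1 gene in PYC and 1 in PV under an unadjusted p of 0.05.

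The 6 libraries under 3% were not low in all mt- genes by the same factor. In CPM as percent of the median of the other libraries of the same group, mt-Rnr1 was at 7.06% and mt-Rnr2 at 9.69% (medians over the 6 libraries), and mt-Nd1, the coding gene next to mt-Rnr2, at 8.53%. Genes at the far end of the heavy strand unit were less low, with 31.6% for mt-Nd5 and 31.2% for mt-Cytb, and mt-Nd6 on the light strand was at 25.6%. The order along the genome was not a plain slope, however. Between them, mt-Nd2 was at 26.98%, mt-Co1 21.7%, mt-Co2 15.6%, mt-Atp8 10.7%, mt-Atp6 13.1%, mt-Co3 29.3%, mt-Nd3 14.8%, mt-Nd4l 22.2% and mt-Nd4 13.2%. The log2 ratio of mt-Nd5 to mt-Nd1 ran from 2.54 to 5.22 in the 6 libraries and from 0.22 to 1.61 in the other 77, with no overlap. The log2 ratio of mt-Rnr1 to mt-Rnr2 ran from -0.81 to -0.24 in the 6 and from -0.28 to 0.35 in the others. Coding counts per 100 rRNA counts ran from 18.96 to 84.6 in the 6 and from 3.87 to 17.9 in the others. The 6 libraries were chosen by their mt- share, so these values are a description. In the 6 libraries, the share of nuclear long noncoding RNAs was between 2.50% and 3.08%, and in the other 77 between 1.16% and 2.95%; the astrocyte sum was 3189 ± 613 CPM, against 2971 ± 677 CPM. The oligodendrocyte sum was 1293 ± 424 CPM, against 736 ± 325 CPM. Their part in the low share was not tested.

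**Figure D4:**
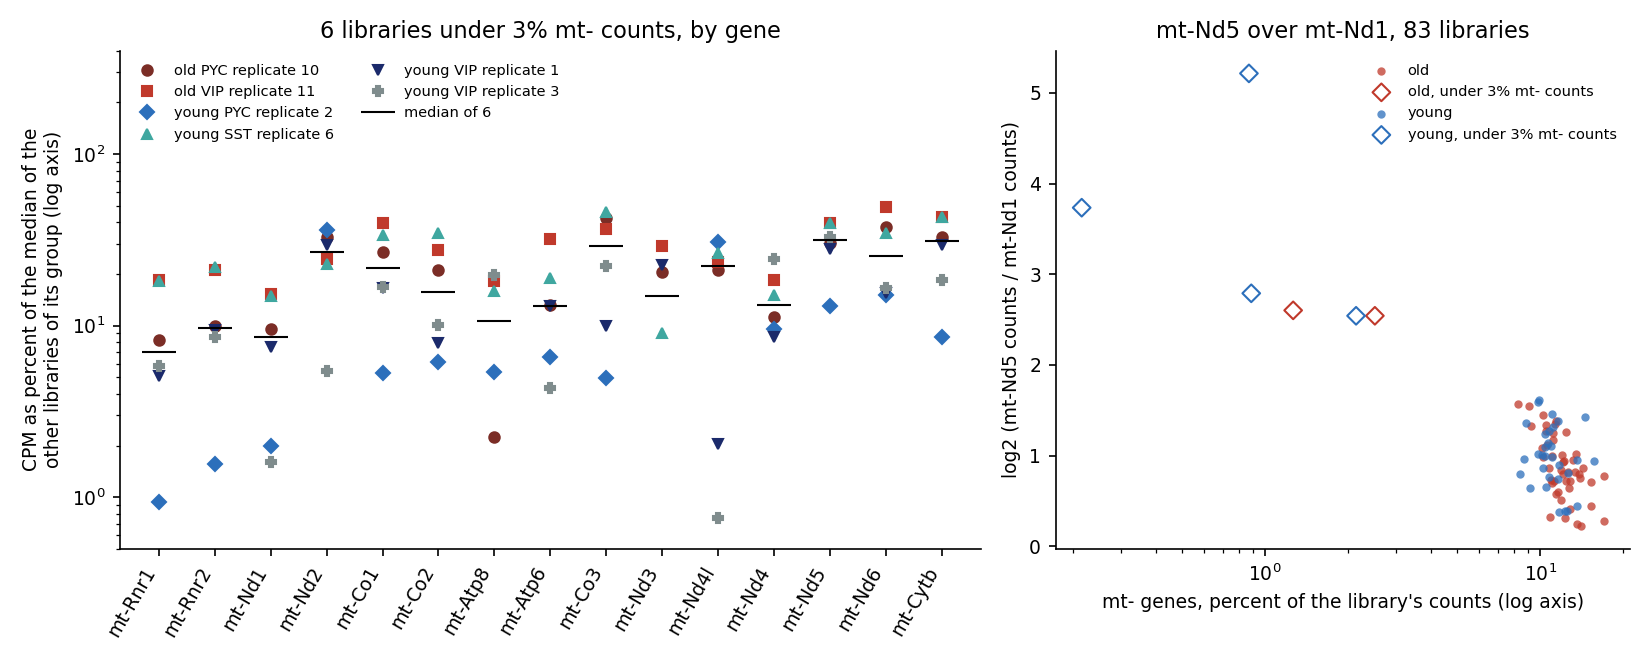
Left, CPM of each rRNA and coding gene in the 6 libraries under 3% mt- counts, as percent of the median of the other libraries of the same group (log axis, genes in genome order, values of 0 not drawn); black lines are medians over the 6. Right, log2 ratio of mt-Nd5 to mt-Nd1 counts against the mt- share of the library (percent, log axis) in all 83 libraries; the 6 lie at 2.54 or above and the rest at 1.61 or below.

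The nuclear copies split the libraries in another way. The 7 pseudogenes on chromosome 1 summed to 2518 to 5673 CPM in 26 libraries and to 11.4 to 1066 CPM in the other 57, with none between. The 26 were found in every group, as 5 of 12 old PYC and 1 of 9 young PYC, 4 of 12 old PV and 2 of 8 young PV, 3 of 12 old SST and 4 of 9 young SST, and 5 of 12 old VIP and 2 of 9 young VIP libraries. None of the 6 libraries under 3% was among them by this sum, which does not allow for their few mt- counts. For Gm10925, the mt-Atp6 copy whose sequence is printed above, the median was 1582 CPM in the 26 libraries and 38.2 CPM in the 57. The levels of mt-Atp6 itself were alike, with medians of 1491 CPM in the 26 and 1447 CPM in the 57. Among the 6 libraries under 3%, Gm10925 was near mt-Atp6 in young PYC replicate 2 (91.6 and 91 CPM) and old PYC replicate 10 (192.4 and 181.6 CPM). The same held for young VIP replicates 1 (206.3 and 197.5 CPM) and 3 (76.9 and 66.45 CPM). It was far lower than mt-Atp6 in young SST replicate 6 (6.96 and 270.7 CPM) and old VIP replicate 11 (4.97 and 397.6 CPM). The 7 matched mt- genes summed to a median of 7288 CPM in the 26 and 7828 CPM in the 57. The cause of the split was not tested. When the counts of the copies were added to the mt- genes they match, 7 of the 10 coding genes stayed called in PV (7.97% of genes called higher), and mt-Atp6, mt-Co2 and mt-Co3 no longer passed. Among the genes that stayed called, mt-Co1 alone has a copy among those added, so the counts of the others were unchanged. In the 26 libraries the median was 548 CPM for mt-Co2 beside 529 CPM for its copy, and 470 CPM for mt-Co3 beside 581 CPM. In the 57 the medians of these copies were 6.145 and 10.15 CPM. The sum therefore raised such genes mostly in the 26, and why the 3 calls were lost was not tested. With limma-voom all 13 coding genes passed (10.2% called higher).

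**Figure D5:**
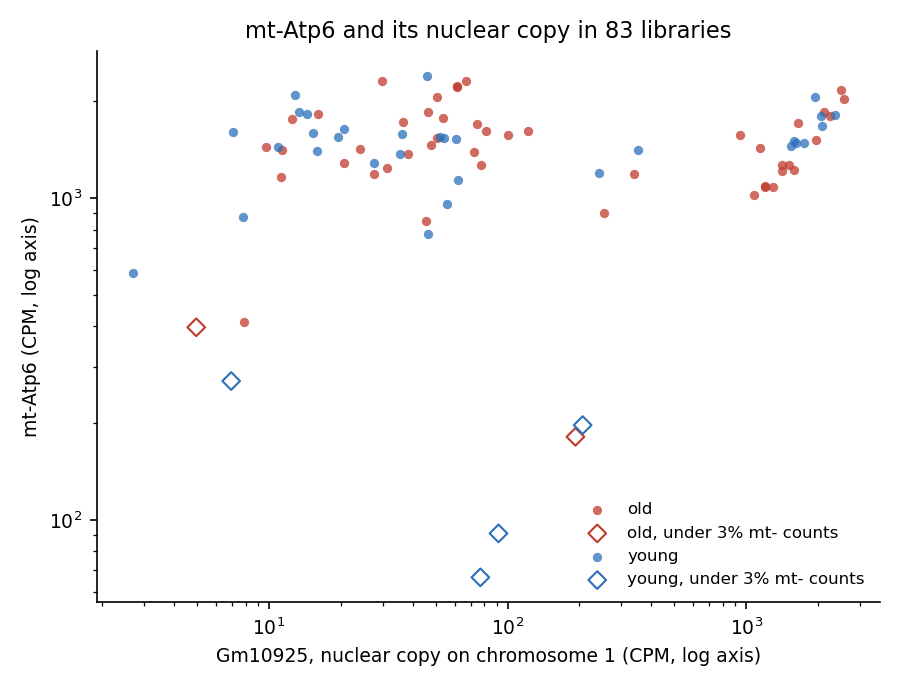
Level of mt-Atp6 (CPM, log axis) against that of its nuclear copy Gm10925 (CPM, log axis) in the 83 libraries, with old libraries in red, young in blue and the 6 libraries under 3% mt- counts as open diamonds. A separate cloud at the right of libraries with high Gm10925 has mt-Atp6 levels within the range of the rest.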

How the data were processed

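Raw counts per gene for 83 libraries were deposited by the authors as 1 table. The submitters' processing notes name HISAT2 and the build GRCm38. Libraries were made with a stranded total RNA kit for very low input, per the labels' protocols. The sources used here do not give the counting tool, its annotation release or whether it used strand. No molecular identifiers were used, so limits given for counts of 0 cover counting error only.

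Members are all rows whose mouse symbol starts with mt-. The members and gene lists were chosen with earlier results of these data known. CPM is counts-per-million of the library's total. Fold changes and p-values come from edgeR 4.0.16 in R 4.3.3 (TMM, filterByExpr with a minimum count of 10, robust quasi-likelihood test, Benjamini-Hochberg over all genes tested, adjusted p under 0.05), with all genes in the fit; the code was tested on simulated data. Alternatives used DESeq2 1.42.0 and limma 3.58.1. Within each type old was compared with young, and between types each type with the mean of the other 3. Ratios had 0.5 added to counts. Shares over a class were not tested. Values of single libraries are given for both rRNAs and, per type, for the 3 coding genes with the smallest p for age, and of the nuclear lists for the genes with the smallest p between types; tRNAs are given by counts, since none passed the filter in every type. Replicate numbers were given in order of listing and pair no libraries. No pair of libraries held identical counts, and all libraries were used.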

Additional observations from a re-analysis of the deposited data

Results flagged for a closer look

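Single libraries far from the rest of their group were looked for in the young groups. The old groups hold more libraries than the search allows and were not searched. In 92 combinations of a group and a measure 19 were found, and chance alone marks about 1 in 20 groups. Most belong to libraries under 3% mt- counts. In young PYC replicate 2 the rRNA share was 0.116% (nearest other library 7.70%), mt-Rnr1 was at 429 CPM (36544), mt-Rnr2 at 729.8 CPM (38929) and mt-Co2 at 34.2 CPM (349), and its log2 ratio of mt-Rnr1 to mt-Rnr2 was -0.77 (-0.21) and of mt-Nd5 to mt-Nd1 3.73 (1.36). In young SST replicate 6 the rRNA share was 1.80% (7.74%), mt-Rnr1 was at 8010.4 CPM (40621), mt-Rnr2 at 9979.9 CPM (36779), mt-Co1 at 1285 CPM (2947) and mt-Nd4 at 108 CPM (561), and the log2 ratio of mt-Nd5 to mt-Nd1 was 2.54 (1.61). In young VIP replicate 3 that ratio was 5.22 (2.79).

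The others lie in libraries with a usual mt- share. The tRNA share was high in young PYC replicate 9 at 0.00369% (0.00213%), in young PV replicate 7 at 0.00365% (0.00145%) and in young VIP replicate 5 at 0.00319% (0.000755%). The nuclear copies on chromosome 1 summed to 4304 CPM in young PYC replicate 3, the single young PYC library in the high set (nearest other 360.4 CPM). The log2 ratio of mt-Rnr1 to mt-Rnr2 was 0.27 in young PV replicate 3 (0.09), and that of mt-Nd1 to mt-Rnr2 was -6.99 in young PYC replicate 1 (-6.18). What set these libraries apart was not tested.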

How the results depend on the processing

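The same 10 coding genes were called in PV with RLE size factors, with library sizes from nuclear genes, with genes under the median abundance left out, with limma-voom and without the libraries under 3% mt- counts (10 to 13 mt- genes in all); 7 of them were called in old libraries alone and 7 with the nuclear copies added. For age, with no filter on low counts the mt- genes called numbered 2 in PYC, 1 in PV, 3 in SST and 3 in VIP, in fits that called 20.4%, 20.9%, 18.5% and 21.4% of all genes; limma-voom called 1 in PYC. Between types, leaving out the libraries under 3% mt- counts gave 3 in PYC and 1 in SST, the same with young libraries alone gave 1 in SST, limma-voom gave 3 in SST, and young libraries alone gave 0 in PV. Of the genes for replication, transcription and processing, PV had 4 called with limma-voom, 2 without the libraries under 3%, and 0 in old libraries alone with or without those libraries. Of the regulators of biogenesis, 1 was called in PV within each age, with or without those libraries. With limma-voom the sign turned for mt-Atp8 in PYC (-0.35), mt-Rnr2 in SST (-0.019) and mt-Nd5 in VIP (-0.13). Without the libraries under 3%, the VIP difference in the log2 ratio of mt-Rnr1 to mt-Rnr2 was -0.18 and passed, and that of mt-Nd1 to mt-Rnr2 turned to -0.11. The cause was not tested.

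With the F number of the library titles as a factor, edgeR called no gene for age in any type. With each library left out in turn, no mt- gene was called for age in any type. Results whose sign turned were, among class shares, old minus young in percentage points, rRNA in PV (-0.51 to 0.19), coding in PYC (-0.088 to 0.097) and coding in PV (-0.012 to 0.13), and, among log2 values, mt-Rnr1 in PV (-0.080 to 0.039), the log2 ratio of mt-Nd1 to mt-Rnr2 in PV (-0.028 to 0.098) and VIP (-0.11 to 0.26, negative without young VIP replicate 3), of mt-Nd5 to mt-Nd1 in PV (-0.073 to 0.076) and PYC (-0.43 to 0.031, positive without young PYC replicate 2), and of mt-Rnr1 to mt-Rnr2 in VIP (-0.12 to 0.0053, positive without young VIP replicate 4). None of these log2 values passed a test with all libraries. The age split without the libraries under 3%, PV against each type alone, the nuclear copies added to their mt- genes and the settings for the nuclear lists were chosen after seeing the data. No paired analysis was possible because the labels tie no library to a mouse and the replicate numbers come from listing order. What difference the few tRNA counts could resolve was not tested.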
